A study of Mus musculus with 4 samples.

Results

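Adipocyte genes were followed in whole eyes of mice that lack both Abca4, a photoreceptor transporter that helps to clear retinaldehyde, and Rdh8, a photoreceptor retinol dehydrogenase. The 9 genes are Fabp4, Cfd, Adipoq, Plin1, Cidec, Car3, Retn, Pparg and Lpl, out of 22558 genes in the deposited table. The set was chosen by the FPKM of Fabp4 and Cfd, which were higher 3 h after light than in the control, so values of that comparison are given as a description. The samples are a control without light and eyes taken 3 h, 24 h and 7 days after light exposure, all from Abca4-/-Rdh8-/- mice aged 6 weeks, and each is described as eyes of 3 mice. The control carries both deletions too, so no group stands for a wild-type eye. The tissue label names the whole eye, while the extraction protocol speaks of retinas. No source used here gives strain, sex or light strength.

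The table holds 1 value per gene and condition, in FPKM (fragment counts divided by the length of the transcript and the size of the library). The series design speaks of triplicates, so a value may come from 1 pooled library or be a mean over 3, and if it is a mean the fragment numbers and intervals below are not those of a single library. There is no replicate check for any difference below, no test was run, and intervals cover counting error only. For a short gene, a single fragment was worth about 0.0448 FPKM without light and 0.0467, 0.0350 and 0.0255 FPKM at 3 h, 24 h and 7 days, which makes the 7-day sample about 1.76 times as deep as the control. Summed FPKM over all genes was 626973 to 680305. Y-linked genes summed to 18.5 FPKM at 7 days and to at most 0.0189 FPKM in the other samples, so the 7-day sample holds male tissue and the sexes of the samples differ. Abca4 was listed at 34.3 to 56.3 FPKM and Rdh8 at 10.5 to 14.2 FPKM in the 4 samples. A value for a whole gene does not show whether the deleted part is transcribed, and no sample is labelled as carrying intact genes, so these levels check no label. In bulk tissue, fewer cells of a type and less RNA per cell cannot be told apart.

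Adipocytes store triglyceride in a large lipid droplet and release fatty acids and signalling proteins called adipokines. The nuclear receptor PPARγ, made from Pparg, and transcription factors of the C/EBP family drive their differentiation and keep the fat cell genes switched on. Fat lies around the eyeball within the orbit, whereas the retina, lens and cornea hold no fat cells. Several of the 9 genes are also used by other cells, Fabp4 by capillary endothelium and macrophages, Lpl and Car3 by skeletal muscle.

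The promoters shown are those of the genes at least 2 times the control at 3 h that had a promoter entry, so this choice used the 3 h values. Retn and Pparg had entries too and are not shown, and restriction of a gene to fat was not measured. Of the 9 genes, 6 had an entry in the RefSeq promoter table of the mouse assembly GRCm38.p6, with 9 windows in all, and Fabp4, Car3 and Lpl had none. The deposited values belong to the mm9 build, so the coordinates are those of the RefSeq table. Each run below is the 250 bases before the start site, 5′ to 3′ on the strand of the gene. Capitals mark matches to TTGCNNAA, a C/EBP motif, in Plin1 and Cidec, and to CCAAT, the CCAAT box, in Adipoq, on either strand. Cfd, plus strand, chr10:79890603-79890852, Adipoq, plus strand, chr16:23146286-23146535, Plin1, minus strand, chr7:79732777-79733026, and Cidec, minus strand, chr6:113434765-113435014, are given in that order.
Cfd: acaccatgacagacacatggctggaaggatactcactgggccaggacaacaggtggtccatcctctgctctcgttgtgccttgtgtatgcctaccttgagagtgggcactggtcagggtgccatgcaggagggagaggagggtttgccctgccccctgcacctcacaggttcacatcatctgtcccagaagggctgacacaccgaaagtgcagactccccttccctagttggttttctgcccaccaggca
Adipoq: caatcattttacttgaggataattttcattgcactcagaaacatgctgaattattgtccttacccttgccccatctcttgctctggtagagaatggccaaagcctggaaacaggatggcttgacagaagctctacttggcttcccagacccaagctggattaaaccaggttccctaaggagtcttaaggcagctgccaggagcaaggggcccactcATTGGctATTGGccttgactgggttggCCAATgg
Plin1: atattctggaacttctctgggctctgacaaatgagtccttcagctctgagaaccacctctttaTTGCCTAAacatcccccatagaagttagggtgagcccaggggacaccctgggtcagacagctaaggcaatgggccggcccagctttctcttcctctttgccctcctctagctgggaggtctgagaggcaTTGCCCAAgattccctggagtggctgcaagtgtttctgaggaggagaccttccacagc
Cidec: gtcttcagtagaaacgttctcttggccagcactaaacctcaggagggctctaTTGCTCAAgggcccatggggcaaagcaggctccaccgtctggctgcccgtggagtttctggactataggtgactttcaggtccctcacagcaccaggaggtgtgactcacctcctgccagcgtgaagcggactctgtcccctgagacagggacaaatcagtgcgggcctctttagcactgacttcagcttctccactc

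Plin1 held TTGCNNAA at 187 and at 58 bases before its start site, and Cidec held it at 198 bases before, with the matches not overlapping one another. Of 32851 promoter windows of the same length, 9.56% held that motif on either strand. The second window of Cidec, which starts further upstream, held no match to any motif searched. Adipoq held CCAAT at 34, 27 and 7 bases before its start site, a motif found in 33.8% of windows. Cfd and Retn held none of the 6 motifs searched. Those were TTGCNNAA, CCAAT, the TATA box TATAAA (12.4% of windows), the nuclear receptor half-site AGGTCA (14.0%), the PPAR direct repeat AGGTCANAGGTCA (0.0335%, or 11 windows) and the glucocorticoid receptor core ACANNNTGT (5.84%). The direct repeat was in none of the 9 windows, and among the 9 windows the half-site was only in Pparg, at 28 bases before 1 start site and 9 bases before another. Pparg, whose 3 h value lay near the control, also held TTGCNNAA at 215 and 16 bases before another of its start sites, CCAAT in 2 of its 3 windows and TATAAA in 1, so the motifs were not limited to the genes that were higher at 3 h. A match is a run of letters and not a bound site.

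Among the 9 genes, 5 were higher at 3 h than in the control by at least 2 times: Fabp4, Cfd, Adipoq, Plin1 and Cidec. All 5 were lower at 24 h than at 3 h, and at 7 days they stood between 0.680 and 1.42 times the control, the highest being Cidec (0.852 to 2.51). Car3, Retn, Pparg and Lpl stayed within 0.846 to 1.18 times the control in every light sample.

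Fabp4, the fatty acid binding protein of adipocytes, was 12.2 FPKM without light and 37.5, 20.3 and 13.0 FPKM at the 3 times after light. The 3 h value stood highest, the 24 h value came next, and the 7-day value lay beside the control. Relative to the control it was 3.07 times as high at 3 h, with an approximate 95% counting interval of 2.66 to 3.54, and 1.66 times as high at 24 h (1.43 to 1.93). At 7 days the ratio was 1.06 (0.912 to 1.24), which includes no difference, and the log2 change ran from -0.02 to 0.09 over the scaling and pseudocount settings tried. These ratios rest on about 261, 766, 555 and 487 fragments, in the order of the samples.

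Cfd, or adipsin, the complement serine protease that adipocytes secrete, was 6.44 FPKM without light and 18.8, 9.77 and 4.72 FPKM at the 3 times after light. It was 2.93 times the control at 3 h (2.41 to 3.59) and 1.52 times at 24 h (1.23 to 1.88). Unlike Fabp4, it ended below the control, at 0.733 times (0.585 to 0.926). From 3 h to 24 h it was lower by a ratio of 0.519, and from 24 h to 7 days by a further ratio of 0.483.

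**Figure D1:**
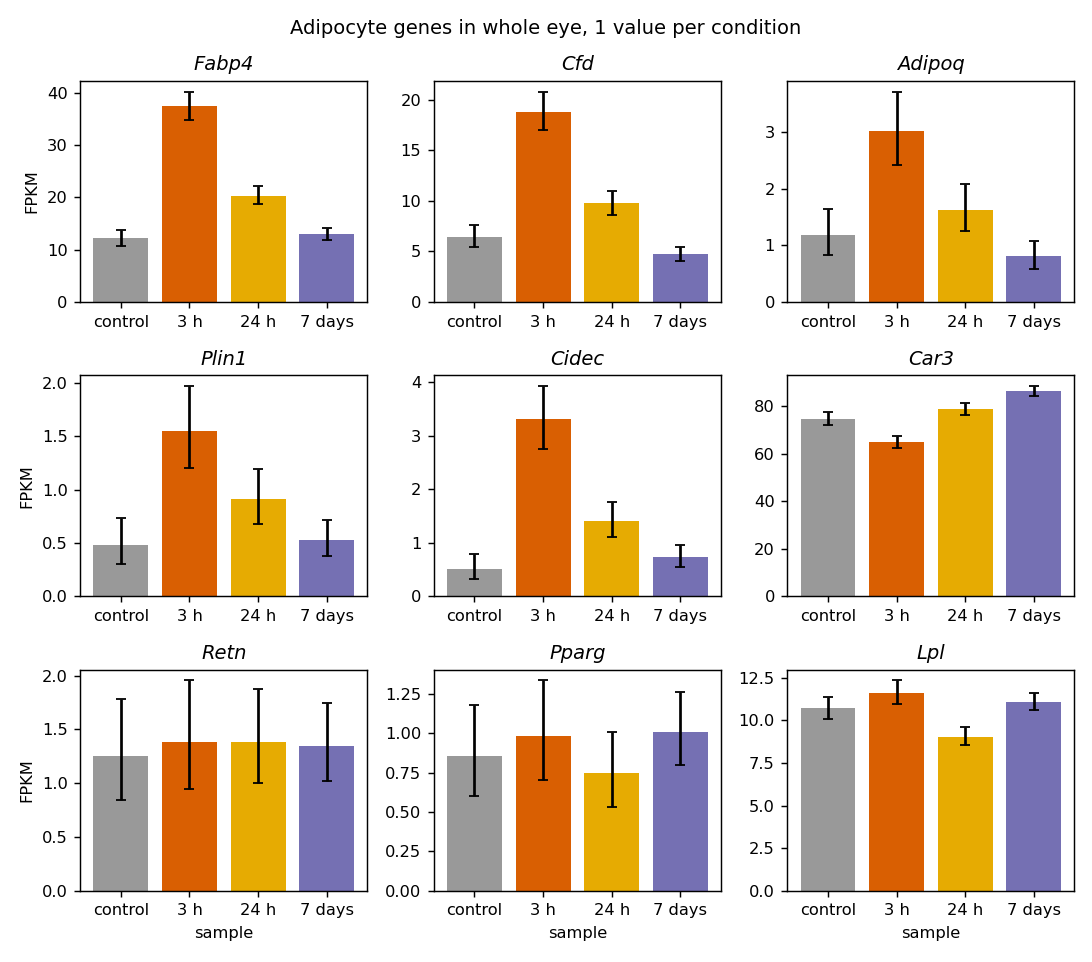
FPKM of each of the 9 adipocyte genes in the control and at 3 h, 24 h and 7 days after light, 1 bar per sample and 1 panel per gene, with bars from 0 and lines for approximate 95% counting intervals only. Fabp4, Cfd, Adipoq, Plin1 and Cidec are highest at 3 h, while Car3 runs from 65.0 to 86.3 FPKM and is highest at 7 days.

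The genes of the lipid droplet and the adipokine adiponectin were at lower levels. Cidec, which promotes fusion of lipid droplets, was 0.520 FPKM without light and 3.31, 1.41 and 0.740 FPKM at the 3 times after light. Its ratio at 3 h was 6.37 (4.02 to 10.7), the largest of the 9 genes, and it rested on about 21 fragments in the control and 129 at 3 h. A lncRNA, Gm52871, overlaps Cidec in the RefSeq annotation of GRCm38, and since the strand of the libraries is not stated, reads of both cannot be told apart. Cidec passed the filter on low values, a mean of at least 1 FPKM, only because of the light samples.

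Plin1, or perilipin 1, coats the lipid droplet and gates lipolysis. It was 0.486 FPKM without light and 1.55, 0.913 and 0.527 FPKM at the 3 times after light. The ratio at 3 h was 3.19 (1.91 to 5.33) and at 24 h 1.88 (1.10 to 3.19), on about 22 to 66 fragments per sample. With a mean of 0.869 FPKM it was under the filter and is outside the counts below. Adipoq, which encodes adiponectin, was 1.18, 3.02, 1.63 and 0.805 FPKM in the same order. Its ratio was 2.56 at 3 h (1.73 to 3.91) and 0.680 at 7 days (0.426 to 1.09), so that the 7-day interval includes no difference.

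**Figure D2:**
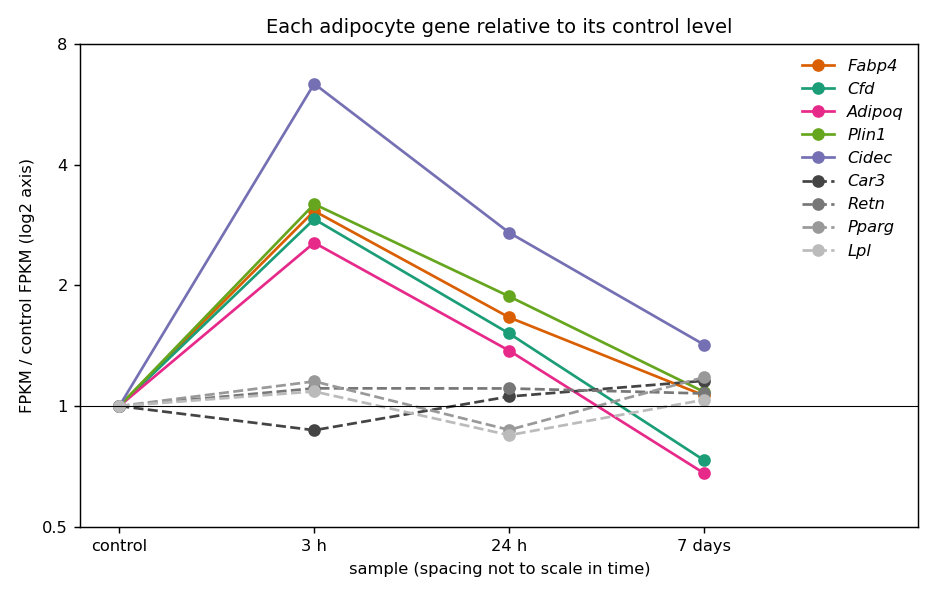
FPKM of each of the 9 genes divided by its control value, on a log2 axis, at the control, 3 h, 24 h and 7 days, with solid lines for genes at least 2 times the control at 3 h and dashed lines for the others. The solid lines peak at 3 h between 2.56 and 6.37, and the dashed lines stay near 1.

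The remaining genes did not follow this course. Car3, the cytosolic carbonic anhydrase of fat and muscle, was 74.7 FPKM without light and 65.0, 78.9 and 86.3 FPKM at the 3 times after light, the most abundant of the 9 in every sample. It was 0.871 times the control at 3 h (0.825 to 0.918) and 1.16 times at 7 days (1.11 to 1.21), where the counting error is small because 2489 to 6059 fragments lie behind each value. A lncRNA, Gm41999, overlaps it in the same annotation. Lpl, the lipoprotein lipase that releases fatty acids from lipoproteins, was 10.7, 11.6, 9.05 and 11.1 FPKM. Its ratio at 24 h was 0.846 (0.777 to 0.921), while the signs at 3 h and at 7 days turned under rescaling on a total that omits lens, surface epithelium, muscle and erythroid genes (to -0.06 and -0.05 on the log2 scale). Retn, the adipokine resistin, was 1.25, 1.39, 1.38 and 1.35 FPKM, with a ratio of 1.11 at 3 h (0.655 to 1.90) whose sign also turned under that rescaling (to -0.02). Pparg, the nuclear receptor that directs adipocyte differentiation, was 0.854, 0.984, 0.745 and 1.01 FPKM, with a ratio of 1.15 at 3 h (0.723 to 1.85), and its mean of 0.898 FPKM was under the filter. For Retn and Pparg no difference between 3 h and the control was detectable at this depth.

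On a log2 scale with 1 FPKM added, which understates the change of low genes, the threshold for calling a gene higher or lower was a change of 1 or more. Of the 7 members that passed the filter, 3 were higher at 3 h than in the control, Fabp4, Cfd and Cidec, with changes of 1.54, 1.42 and 1.50, and none was lower. Of 14194 genes that passed, 0.55% were higher and 0.24% lower, but since the 3 h values chose the genes nothing is read from this share. Among those genes Fabp4 ranked 40th, Cidec 44th, Cfd 49th and Adipoq 97th in size of increase. Adipoq, with a change of 0.88, fell just short of the threshold, and Retn with 0.08 and Lpl with 0.11 were far from it.

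At 24 h no member passed the threshold against the control in either direction, when 0.747% of genes were higher and 0.359% lower. At 7 days none did either, against 0.409% and 0.19% of genes. Between 24 h and 3 h none was higher (0.514% of genes) and none lower (0.437%), with log2 changes of -0.85 for Fabp4 and -0.88 for Cfd. Between 7 days and 24 h none was higher (0.296%) and none lower (0.514%), where Cfd, at -0.91, came nearest. With shares this small in all genes, 0 of 7 members does not stand apart from the background. Against the control, the median change of the 7 members was 0.88, 0.27 and 0.06 at the 3 times, beside 0.02, 0.01 and 0.00 over all genes. These 3 comparisons share the control sample. The median was -0.62 for 24 h against 3 h and -0.47 for 7 days against 24 h, beside -0.01 and -0.01.

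**Figure D3:**
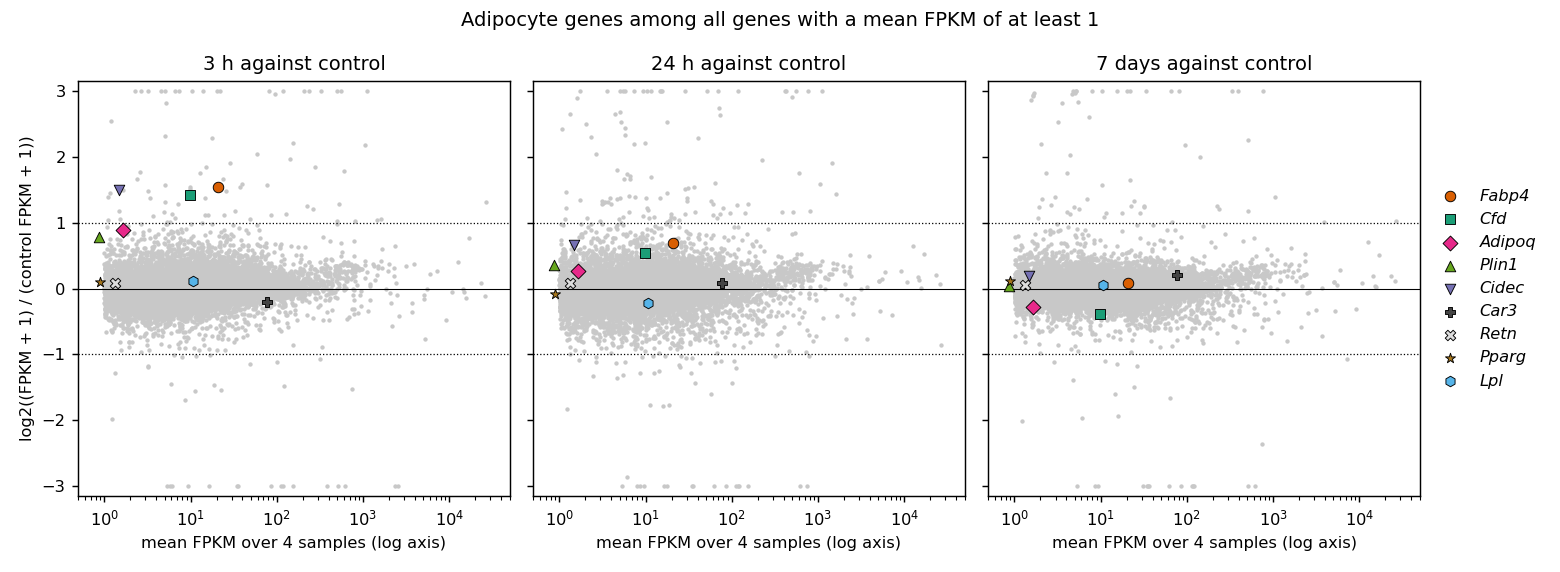
Log2 change against the control plotted over mean FPKM (log axis) for the genes with a mean of at least 1 FPKM (grey) and the 9 members (coloured), in 3 panels for 3 h, 24 h and 7 days, with genes beyond 3 log2 units drawn at the edge and Plin1 and Pparg drawn though they lie under the filter. At 3 h Fabp4, Cfd and Cidec lie above the threshold of 1, and at 24 h and 7 days no member does.

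The order of the samples was the same in most members. In 6 of the 9 the 3 h value was highest, the 24 h value next and the control and 7-day values lowest, and 1 of these, Retn, had it by differences smaller than the counting error. Of the 7 members that passed the filter 5 had this order (71.4%), beside 12.4% of the 14194 genes that passed. Both this order and a 3 h value of at least 2 times the control were met by 4 of the 7 and by 56 of 14194 genes (0.395%). These counts are a description, since the rule used the 3 h values. Fabp4 kept 32.1% of its 3 h excess over the control at 24 h, Cfd 26.9%, Adipoq 24.1%, Plin1 40.1% and Cidec 31.8%. Each share is relative to the 3 h excess on which the set was chosen, and the same control and 3 h samples enter all 5, so these values are a description.

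Expressed as a percentage of Fabp4 in the same sample, Cfd was 52.7% without light and 50.3%, 48.0% and 36.3% at the 3 times after light. Plin1 was 3.98%, 4.14%, 4.49% and 4.06%, a spread of 1.13 times between highest and lowest. Adipoq went from 9.68% in the control to 6.19% at 7 days and was 8.07% at 3 h. The Plin1 shares rest on about 22 to 66 fragments per sample, so this spread cannot be ranked against those of the other genes. Cfd and Adipoq were lowest relative to Fabp4 at 7 days, in the sample with male tissue, and the part of sex in this was not tested. Cidec was 4.25% of Fabp4 in the control and 8.83% at 3 h, so its ratio to the control was larger than that of Fabp4, while on the log2 scale with 1 FPKM added its change, 1.50, was not. Car3 was 611% of Fabp4 in the control and 173% at 3 h, so its ratio to Fabp4 varied by 3.83 times over the samples. Lpl was 87.4%, 31.0%, 44.5% and 85.3%.

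Summed over the 9 members, FPKM was 108.3 without light and 143.2, 124.1 and 119.5 at the 3 times after light. Car3 supplied 74.7 FPKM of the control sum and 65.0, 78.9 and 86.3 FPKM at those times. That was less than the other 8 genes together at 3 h, and more in the other samples. Relative to the control the sum of the 9 was 1.32, 1.15 and 1.10 times, and 24 h was 0.867 times 3 h and 7 days 0.963 times 24 h. Without Car3, an alternative added after the values were seen, the sums were 33.6, 78.2, 45.2 and 33.2 FPKM, or 2.32, 1.34 and 0.987 times the control. The total over all 9 genes thus holds a large part from Car3, which was below its control value at 3 h while the other 8 together were above theirs. Of the 44.6 FPKM by which the other 8 exceeded the control at 3 h, Fabp4 and Cfd supplied 84.5%, and these are the genes whose 3 h values chose the set, so the sum is a description.

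Further fat cell genes were listed with results of these data known, so their values describe this cell type's genes and are no independent check. Of 16 further adipocyte markers, 9 passed the filter, and 4 of these were highest at 3 h (44.4%), against 30.9% of all genes that passed. At 3 h the median log2 change of the 9 was 0.13, with 5 above the control, 4 below and none past the threshold. Those below were Slc2a4, Tusc5, Pnpla3 and Sncg. Under the filter, Aqp7 and Ffar2 were below the control at 3 h, while Adig, Lep, Mrap, Adrb3 and Acvr1c were above. Adig, a membrane protein that promotes adipogenesis, was 0.463, 1.76, 0.693 and 0.444 FPKM, 3.79 times the control at 3 h (1.50 to 11.5) on about 22 fragments at most. Lep, the adipokine leptin, was 0.0305, 0.157, 0.0543 and 0.0541 FPKM, a handful of fragments in each sample, so its ratio of 5.16 has an interval of 1.39 to 57.6. Plin4, a perilipin, was 5.36 FPKM in the control and 9.94 at 3 h and returned to 5.16 at 24 h. Slc2a4, the insulin-responsive glucose transporter, and Lipe, hormone-sensitive lipase, both also active in muscle, were 12.8 and 7.57 FPKM in the control and 12.6 and 8.39 at 3 h. The ratio of 3 h to control was 0.990 for Slc2a4 and 1.11 for Lipe. The defining genes of fat cells were thus listed above 0 in every sample, most of them at low levels in the control.

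Brown fat genes were mixed. Ucp1, the uncoupling protein of brown and beige fat, was 0.0208 FPKM without light and 0.908, 0.847 and 0.0776 FPKM at the 3 times after light, on about 0.8, 34, 42 and 5.3 fragments, so that the control value is about 1 fragment. The ratio at 3 h was 43.6 with an interval of 5.95 to 1442. Cidea, a lipid droplet protein of brown fat, was 0.836, 2.33, 1.93 and 1.01 FPKM. Cidea kept 73.6% of its 3 h excess at 24 h and Ucp1 93.1%, against 24.1% to 40.1% in the 5 members. The ratio of 24 h to 3 h was 0.831 for Cidea (0.580 to 1.21) and 0.933 for Ucp1 (0.574 to 1.50). These intervals overlap those of Plin1 (0.402 to 0.861) and Adipoq (0.384 to 0.750), but not that of Cidec (0.313 to 0.569). Dio2, in the same list, was 4.91 FPKM in the control and 9.78 at 3 h, and it kept 20.9%. At 3 h 5 genes of the list that passed the filter were above the control and 3 below, so the list held no common course. Elovl3, a fatty acid elongase of brown fat, was 0.457 to 0.581 FPKM in all samples, and Lhx8 was listed at 0 in each. Of 12 genes in the list 8 passed the filter, with a median change of 0.15 at 3 h and none past the threshold.

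The lists of lipid handling genes share members with the set, and a called gene that is a member adds nothing to the counts above. Over all genes that passed the filter, 0.55% were higher at 3 h and 0.747% at 24 h. Of 18 lipid droplet and lipolysis genes, 14 passed the filter, and at 3 h 1 of them was higher, Cidec, with a median of 0.15. At 24 h 1 was higher, Plin2, the perilipin found in most cells, at 12.9, 19.0, 27.4 and 16.5 FPKM, which was highest at 24 h where Plin1 was highest at 3 h. Of 15 fatty acid uptake and binding genes 1 was higher at 3 h, Fabp4, with a median of 0.17. Of 18 lipogenesis genes 1 was higher at 3 h, Pck1, the glyceroneogenic enzyme, at 0.390, 2.65, 1.04 and 0.306 FPKM, 6.79 times the control (4.39 to 10.7), with a mean of 1.10 FPKM that passed the filter only through light samples. None of 10 genes of the insulin response passed the threshold at 3 h, with a median of 0.03. Of 13 adipokine genes, 10 passed the filter and 1, Cfd, was higher at 3 h, with a median of 0.09. Cfd was used to choose the set. Lep, under the filter, had a ratio at 3 h of 5.16 (1.39 to 57.6), beside 2.93 (2.41 to 3.59) for Cfd, so these genes cannot be ranked.

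Of the regulators, 18 adipogenic transcription factors had 16 past the filter, 2 of them higher at 3 h. Of all genes that passed, 0.55% were higher then. The median change of the 16 factors at 3 h was 0.16, with 10 above the control and 6 below. Cebpb was 9.36, 21.3, 15.4 and 12.2 FPKM and Cebpd 4.58, 26.3, 31.0 and 9.27 FPKM, both early factors of the adipogenic cascade, while Cebpa, the late factor, was 5.38, 6.69, 6.89 and 7.38 FPKM. Of 6 inhibitors of adipogenesis that passed, none was called at any time. Of 16 PPAR target genes that passed, 3 were higher at 3 h, Fabp4, Cidec and Pck1, with a median of 0.39. Fabp4 was used to choose the set, and Cidec and Pck1 passed the filter only through light samples, so this count is a description. Another PPAR target, Angptl4, an inhibitor of lipoprotein lipase, was 5.76, 6.71, 4.87 and 2.71 FPKM.

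**Figure D4:**
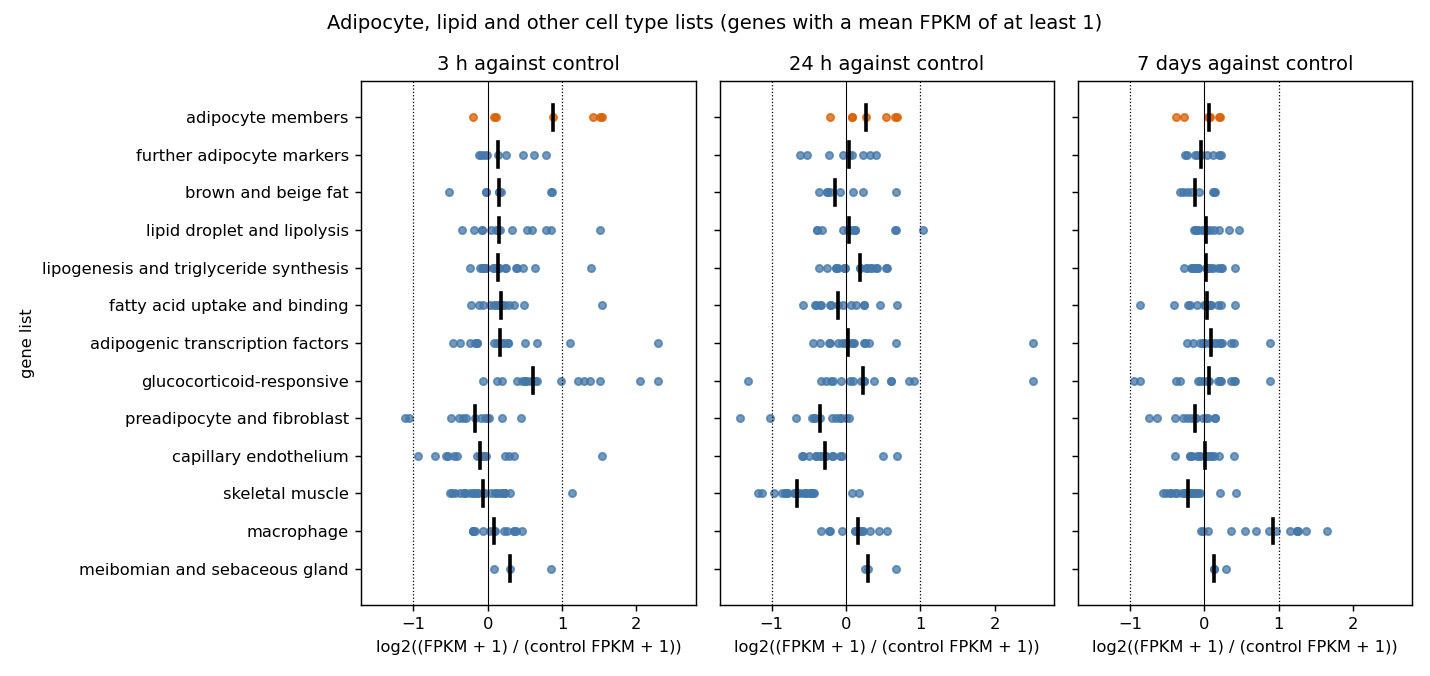
Log2 change against the control of the genes in 13 lists that passed the filter, 1 point per gene and a bar for the list's median, members included where a list holds them, in panels for 3 h, 24 h and 7 days. The members have a median of 0.88 at 3 h and the glucocorticoid-responsive genes one of 0.61.

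Genes of other tissues and of the glucocorticoid response are given beside the fat genes, and their part in the 3 h values was not tested. Of 18 glucocorticoid-responsive genes that passed the filter, 6 were higher at 3 h and none lower, with a median of 0.61, and 16 were highest at 3 h. Over all genes that passed, 0.55% were higher, 0.24% lower and 30.9% highest at 3 h. This list shares Klf9, Klf15 and Cebpd with the adipogenic transcription factors. Its largest change at 3 h, 2.29, is that of Cebpd, which thus counts as higher in both lists. Tsc22d3 was 29.0, 122.5, 44.5 and 39.1 FPKM and Fkbp5 6.15, 19.4, 7.44 and 6.48 FPKM. In surface epithelium 2 of 17 genes that passed were higher at 3 h and the list median was 0.36, while 12 of the 17 were highest then. Skeletal muscle genes without Car3 summed to 1.09 times the control at 3 h, though 13 of 24 were below it and the median log2 change was -0.05. Tcap, in that sum, was 89.6 FPKM in the control and 197.7 at 3 h. At 24 h the muscle sum was 0.663 times the control, with 23 of 24 below it, when Fabp4 was 1.66 times the control. Capillary endothelium, which also makes Fabp4, summed to 0.746 times the control at 3 h when Fabp4 itself was left out. Its median log2 change was -0.13, with 11 of 14 genes below the control and 3 above. The largest differences in FPKM were in Cldn5, a tight junction gene, at 27.6 in the control and 14.0 at 3 h, and Kdr, at 21.7 and 12.9. The ratio at 3 h was 0.987 for Pecam1, and those above the control were Gpihbp1 (1.48), Sox17 (1.32) and Cd36 (1.25). Macrophage genes, of another cell type that makes Fabp4, summed to 1.18 times the control at 3 h and 2.04 times at 7 days, when Fabp4 was back at 13.0 FPKM. At 3 h the median log2 change of the macrophage genes was 0.09, with 9 of 14 above the control and 5 below. Preadipocyte and fibroblast genes without Pparg summed to 0.816 times the control at 3 h, at 1519 against 1862 FPKM. The fibrillar collagens Col1a1 and Col3a1 were past the threshold downwards, at 223.9 against 468.4 and 76.2 against 165.9 FPKM, and made up most of that difference. Of the 13 genes of that list that passed the filter, 10 were below the control at 3 h and 3 above, with a median log2 change of -0.17. The ratio at 3 h was 0.691 for Pdgfrb and 0.764 for Pi16, against 0.989 for Dcn, 1.01 for Lum and 1.37 for Ly6c1.

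In 12 meibomian and sebaceous gland genes, glands of the lid that make lipid, Awat1 was listed at 0 in every sample and Awat2 was 0.536 to 0.670 FPKM. Only 3 genes passed the filter, Mgst1, Soat1 and Cidea, with a median of 0.29 at 3 h, which is the value of Mgst1. Cidea is in the brown fat list too. Under the filter, Awat2, Far2, Scd3, Fa2h and Krt79 were below the control at 3 h, and Elovl3 and Mc5r above, all at less than 1 FPKM. Mc5r was 0.104, 0.431, 0.186 and 0.0743 FPKM in the order of the samples. It was 4.15 times the control at 3 h (1.94 to 8.92), on about 38 fragments at most. Lens genes took 20.9% of all FPKM at 3 h and at least 23.9% in the other samples. The scale that omits lens, surface epithelium, muscle and erythroid genes lowers the 3 h change of an abundant gene by 0.18. On it Fabp4 was 1.37, Cfd 1.25 and Cidec 1.40 at 3 h.

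The protein-coding genes of at least 5 FPKM whose 3 changes against the control lay nearest to those of Fabp4, as the distance over the 3 log2 changes among 10167 genes, were Jun (0.393), Sult1a1 (0.414), Mt1 (0.436), Fkbp5 (0.452), Fmo1 (0.459), Mt2 (0.485), Cfd (0.503) and Cebpb (0.512). Those nearest to Cfd were Fos (0.348), Jun (0.417), Fabp4 (0.503), Ip6k2 (0.512), Fkbp5 (0.541), Egr1 (0.578), Suv39h2 (0.633) and Lpcat1 (0.670). Jun and Fkbp5 were near both. With 3 changes from 4 samples, this likeness describes these samples.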

How the data were processed

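RNA from 4 samples, 1 per condition, was sequenced. The values used are the FPKM that the authors deposited. The genome build was mm9 and the tools were Cuffdiff 2.2.1, TopHat2 (version 2) and bcl2fastq 1.8.3, per the submitters' processing notes. Cufflinks is named in the series design. The annotation, the library scaling and whether a value is a pool or a mean over the triplicates that the design mentions were not given in the sources used here. Any FPKM depends on the total of all transcripts, so very abundant lens transcripts can move other genes. No read counts were used.

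Changes were log2 of (FPKM + 1) over (FPKM + 1), called at 1 or more in size among 14194 genes with a mean of at least 1 FPKM. Fragments per gene were approximated from the smallest values of olfactory receptor genes (14 to 20 per sample) and GENCODE vM21 transcript lengths, and intervals of ratios are exact binomial at 95%. Gene classes matched 22327 of 22558 symbols (99.0%), and the 26 gene lists held 357 entries, of which 353 were found. The members and lists were chosen with earlier results of these data known. The genes named were all 9 members, any gene of a list within its account, the 8 nearest to Fabp4 and the 8 nearest to Cfd, and Abca4 and Rdh8. As alternatives, the pseudocount was set to 0.1, the filter was dropped or raised to 5 FPKM, and 3 rescalings were tried. Python 3.11.15, pandas 2.3.3, numpy 2.4.6, scipy 1.17.1 and matplotlib 3.10.9 were used, and the calls were tested on simulated data.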

Additional observations from a re-analysis of the deposited data

Results flagged for a closer look

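The direction of Cfd against the control differed between times, with log2 changes of 1.42 at 3 h, 0.53 at 24 h and -0.38 at 7 days. Car3 ran the other way, from -0.20 at 3 h through 0.08 at 24 h to 0.21 at 7 days. With 1 sample per time, the difference between times was not tested for either gene, and all of these changes use the same control sample.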

How the results depend on the processing

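No paired analysis was possible because each condition has 1 sample, and no sample could be left out. Against the control, the sum of the 9 genes became 1.17, 1.09 and 1.02 times at 3 h, 24 h and 7 days on a total that omits lens, surface epithelium, muscle and erythroid genes, and 24 h became 0.939 times 3 h. Leaving out small RNA genes as well gave 1.26 at 3 h. Leaving out Car3, chosen after seeing the data, gave 2.32, 1.34 and 0.987 times the control, 0.578 for 24 h against 3 h and 0.734 for 7 days against 24 h. With a pseudocount of 0.1, 1 member, Cidec, was higher at 24 h than in the control, 1, Cidec, was lower at 24 h than at 3 h, and 1, Cfd, was lower at 7 days than at 24 h, where the reported counts are 0. The count of members higher at 3 h was 3 as reported, 4 with that pseudocount and 2 with the filter at 5 FPKM. The rescaling without the 4 lists moved FPKM by -0.18, -0.07 and -0.11 log2 units at 3 h, 24 h and 7 days, and less for low genes once 1 FPKM is added. Of the members' summary values under alternatives, 97 kept within the counting interval or, for counts, within 1.5 times, and 13 did not. For single members 174 did and 6 did not, and for the other lists 758 and 72. Low fragment numbers limit Adipoq, Plin1, Cidec, Retn and Pparg.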

Other observations

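Relatives of the members are given as values. Of 9 fatty acid binding protein genes, 6 passed the filter, and at 3 h Fabp4, which was used to choose the set, was the 1 gene past the threshold, where 0.55% of all genes that passed were higher. Fabp5, an abundant relative of epithelium and lens, was 2006 FPKM in the control and 1911 at 3 h, and Fabp3, the form of muscle, was 29.4 and 33.2 FPKM. In the alternative pathway of complement, to which Cfd belongs, 7 of 8 genes passed. Cfb, the substrate of Cfd, was 2.93 FPKM in the control and 2.46 at 3 h, and C3 was 3.96 and 5.76 FPKM. Cfi, which inactivates C3b, was 0.398, 0.304, 2.86 and 1.22 FPKM over the 4 samples, so its highest value came at 24 h. Among 15 carbonic anhydrases none of the 11 that passed was called at 3 h, and Car2, the abundant cytosolic form, was 140.7 FPKM in the control and 130.8 at 3 h.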
